A study of Mus musculus with 4 samples.

Results

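The ion channel genes of microglia described here are 10 named genes: the potassium channel genes Kcnk13, Kcnk6, Kcnj2, Kcna3 and Kcnn4, the proton channel gene Hvcn1, the TRP cation channel genes Trpv2 and Trpm2, the mechanosensitive channel gene Piezo1, and Lrrc8a, a subunit of the volume-regulated anion channel. They were taken by gene symbol from tables that held 49993 genes with a count, and all 10 passed the filter on low counts that left 21439 genes for testing. The RNA came from CD11b+ cells that the labels call microglia, isolated with magnetic beads from the brains of mice aged 10 months. Every mouse carried APP/PS1, a transgene model of Alzheimer's disease with amyloid deposits. The AD group (n = 2 libraries) had the genotype APP/PS1+ asrij+/+, and the AD/KO group (n = 2 libraries) had the genotype APP/PS1+ asrij-/-, a deletion in the whole animal of asrij, whose mouse gene symbol is Ociad1. The labels do not give the promoter that drives the transgenes, the sex of the mice, the number of animals behind a library or a group without APP/PS1. Nothing in the labels says that the libraries of a group came from separate animals, so that p-values measure the spread between these libraries, which may be technical.

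Ion channels set the membrane potential and the ion content of microglia, and with them process movement, volume, calcium entry and the release of cytokines. Potassium channels hold the membrane potential negative, and loss of potassium through them is a known trigger of the NLRP3 inflammasome. The proton channel carries out the charge that the NADPH oxidase moves across the membrane. TRP channels and Piezo1 let cations including calcium in, and the anion channel built on Lrrc8a lets chloride and small organic molecules out when cells swell.

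The libraries held from 13102622 to 19810076 counts. Ociad1, the deleted gene, stood at 50.2 and 63.4 CPM (counts relative to the library's TMM-scaled total) in the AD libraries and at 38.9 and 32.1 CPM in the AD/KO libraries. It was therefore lower on this scale but present in the libraries labelled AD/KO (log2 fold change −0.68, adjusted p = 0.680, edgeR quasi-likelihood, Benjamini-Hochberg). With the libraries scaled to the microglia identity genes named next, Ociad1 was at 35.2 and 60.6 CPM in AD and at 26.5 and 70.4 CPM in AD/KO. The groups then overlapped, and AD/KO is used below as the name of that label. The labels do not say which exons were deleted. A list of 19 microglia identity genes (such as P2ry12, Tmem119 and Csf1r) was high in each library, at a mean log2(CPM + 0.5) of 9.84 and 9.40 for AD replicates 1 and 2 and of 9.88 and 8.20 for AD/KO replicates 1 and 2. All 12 neuron and all 12 astrocyte markers passed the filter, and the astrocyte list ran at 5.91, 7.22, 7.33 and 8.62 in the same order. AD/KO replicate 2 thus stood apart, with the lowest microglia level and the highest neuron and astrocyte levels. AD replicate 2 had the highest level of the 12 neutrophil markers, with a summed level of 5752 CPM against 874 to 1404 CPM in the other libraries. Much of the sum in the replicate 1 libraries was Csf3r. It was at 996 and 629 CPM in AD and 694 and 256 CPM in AD/KO, and unlike the others it was not highest in AD replicate 2. Of the T and NK cell markers, Trbc1 and Trbc2 had no read in any library, as had Ighm and Ighd among the B cell markers. In such bulk samples, fewer cells of a type and less RNA per cell cannot be told apart.

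**Figure D1:**
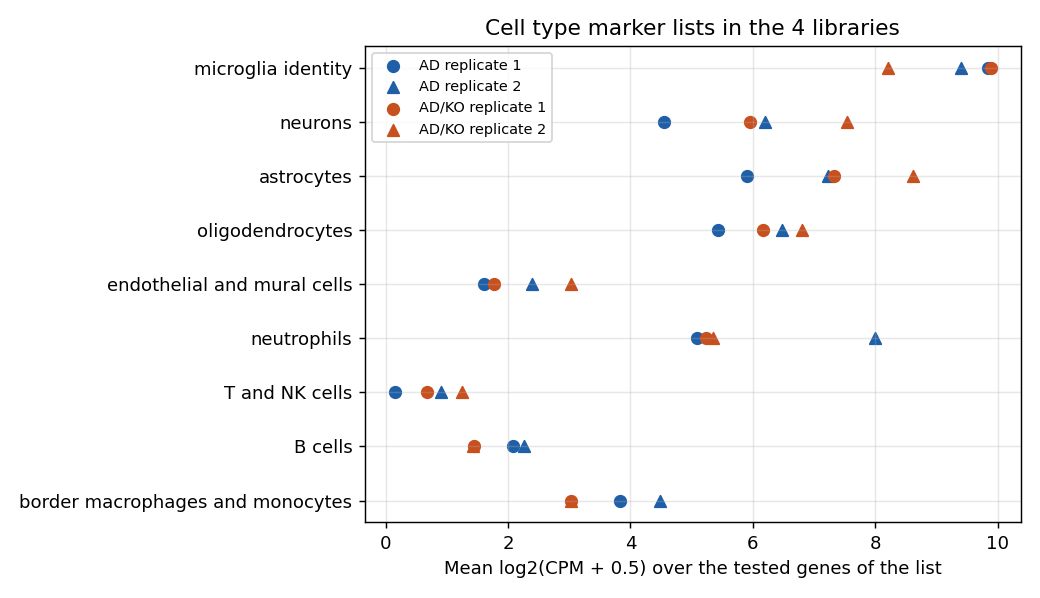
Mean log2(CPM + 0.5) over the tested genes (x axis) of 9 cell type marker lists (y axis) in each of the 4 libraries (points; circles are replicate 1, triangles replicate 2). AD/KO replicate 2 has the lowest microglia level (8.20) and the highest astrocyte level (8.62), and AD replicate 2 the highest neutrophil level.

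Among the channel genes, Kcnj2 had its 2 lowest values, and Lrrc8a its 2 highest, in the libraries labelled AD/KO, and the other 8 overlapped between the groups. By fold change 8 of the 10 were lower in AD/KO, while 52.8% of all genes tested were lower. Their median log2 fold change was −0.35, against −0.05 over all genes tested, and it depended on single libraries: leaving out AD/KO replicate 2 gave 0.04, AD replicate 1 −0.05, AD/KO replicate 1 −1.13 and AD replicate 2 −0.54. The AD/KO values were both under the lowest AD value in 1 member (Kcnj2), as in 21.7% of all genes tested, and both over the highest in 1 member (Lrrc8a), as in 20.3% of all genes tested. With edgeR's quasi-likelihood test and Benjamini-Hochberg adjustment over all genes, 0 of the 10 had an adjusted p under 0.05, as had 0% of all genes (0 of 21439), and the members' adjusted p ran from 0.680 to 0.955. DESeq2 also called 0 of the 10. At an unadjusted p under 0.05 there was 1 member, Kcnj2, in the lower direction, where 2.3% of all genes tested were.

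**Figure D2:**
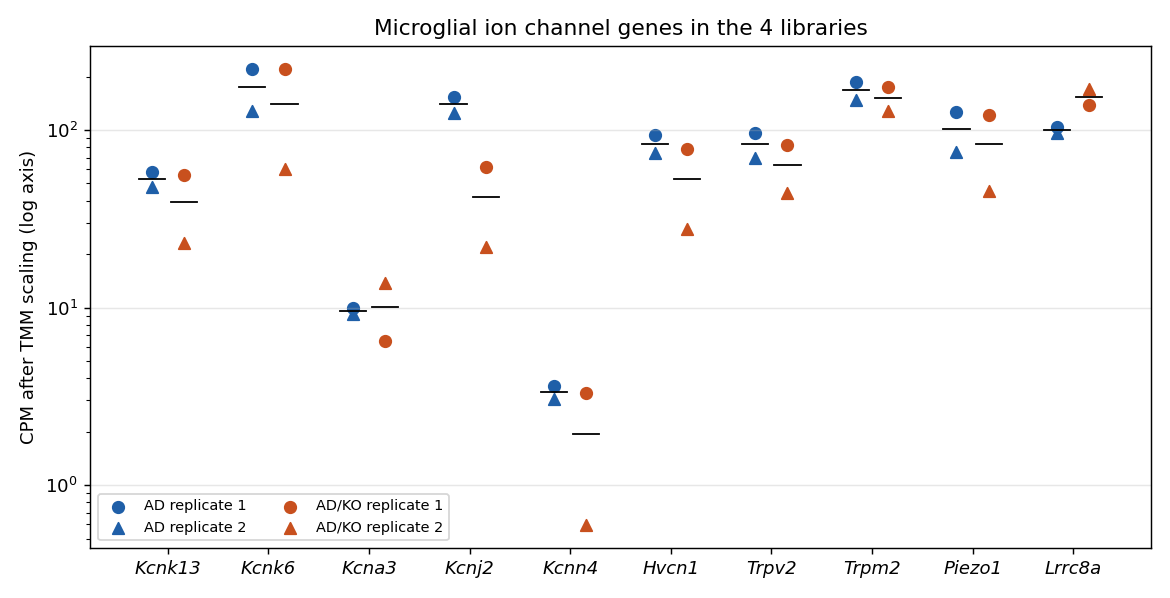
CPM after TMM scaling (y axis, log scale) of the 10 channel genes (x axis) in each of the 4 libraries (points; circles are replicate 1, triangles replicate 2), with the mean of each group as a short line. Kcnj2 is lower and Lrrc8a higher in both AD/KO libraries, and 8 genes have their lowest value in AD/KO replicate 2.

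The shape of the difference was shared by most members. In 8 of the 10 genes, all but Kcna3 and Lrrc8a, AD/KO replicate 2 was the lowest of the 4 libraries, as it was for the microglia identity list. In 6 of the 10, AD/KO replicate 1 lay between the AD libraries. Within AD, replicate 2 was below replicate 1 in all 10 genes. How many of all genes tested had these orders was not counted, so they are not shown to be particular to channels. Because the microglia level differed, the libraries were also compared after scaling that made the mean of the 19 microglia identity genes equal. This expresses each channel relative to the mean of that list. The list did not move as a whole. Of its 19 genes, 4 then lay below and 4 above in both AD/KO libraries, where 8.39% and 8.06% of all genes did. On that scale the median log2 fold change of the members was 0.10 and that of all genes was 0.70. The AD/KO values were then both under the AD values in 3 members (Kcnj2, Kcnn4 and Hvcn1), as in 8.39% of all genes tested, and both over them in 1 member (Lrrc8a), as in 8.06% of all genes tested. Except in Kcnj2 the gaps were narrow. The nearest AD/KO and AD values were 2.24 and 2.54 CPM in Kcnn4, 61.0 and 65.7 in Hvcn1, and 93.9 and 91.7 in Lrrc8a. Such separation takes no account of counting error.

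**Figure D3:**
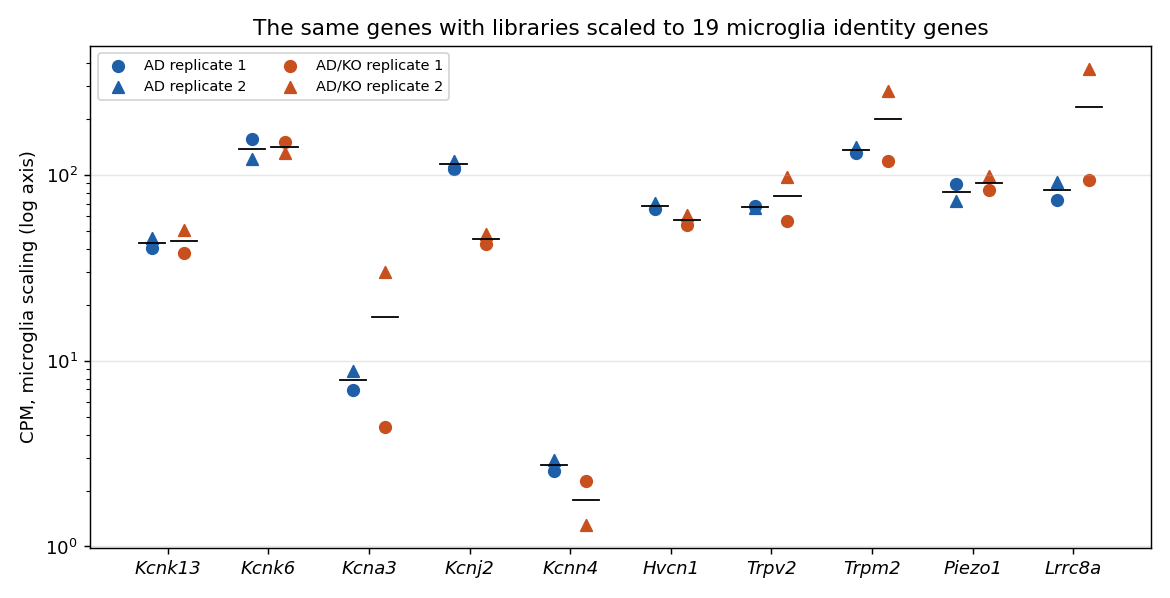
The same 10 genes (x axis) as CPM with the libraries scaled to 19 microglia identity genes (y axis, log scale), 1 point per library (circles are replicate 1, triangles replicate 2) and the mean of each group as a short line. Kcnj2 stays apart between the groups (108 and 119 against 42.2 and 48.1). Kcnk13 (37.9 to 50.6) and Kcnk6 (122 to 155) each keep to a narrow range over the 4 libraries.

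Of the 5 potassium channels among the members, Kcnj2 (gene ID 16518, chromosome 11, 111066164 to 111076825, RefSeq on GRCm38.p6, protein-coding) differed most between the groups. It encodes Kir2.1, an inward rectifier that passes potassium near the resting potential. The levels were 154 and 125 CPM in the AD libraries and 61.9 and 21.98 CPM in the AD/KO libraries. Both AD/KO libraries were low, and the groups did not overlap. AD averaged 140 ± 20.8 CPM (SD, n = 2) and AD/KO averaged 41.96 ± 28.3 CPM (SD, n = 2), a 3.33-fold difference. The log2 fold change was −1.73 (SE 0.56, 95% interval −3.19 to −0.28), with an unadjusted p of 0.0278 and an adjusted p of 0.680 (edgeR quasi-likelihood, Benjamini-Hochberg), which did not pass the threshold. Its size depended on the AD/KO libraries: it was −2.61 without AD/KO replicate 1 and −1.16 without AD/KO replicate 2.

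On the microglia scaling Kcnj2 was at 108 and 119 CPM in AD and at 42.2 and 48.1 CPM in AD/KO. The AD/KO libraries then lay close together, at a mean of 39.7% of that in AD, and apart from both AD libraries. The log2 fold change on that scaling was −1.33 (adjusted p = 0.795, edgeR quasi-likelihood, Benjamini-Hochberg). Markers of border macrophages and monocytes had the same direction: after TMM scaling 11 of 12 were lower in AD/KO and 9 of 12 did not overlap, where 21.7% of all genes lay below, with a summed level of 318 and 663 CPM in AD and 147 and 185 CPM in AD/KO. On the microglia scaling 3 of the 12 did not overlap, where 8.39% of all genes lay below. B cell markers had 5 of 7 tested without overlap in that direction after TMM scaling and 2 of 7 on the microglia scaling. Their summed TMM-scaled level was 44.3 and 50.5 CPM in AD and 25.6 and 24.96 CPM in AD/KO. Much of the sum in AD was Cd22, the highest of them, at 26.2 and 26.4 CPM in AD and 10.7 and 5.59 CPM in AD/KO. By fold change 6 of the 7 were lower and 1, Ebf1, was higher. The part of either list in the lower level of Kcnj2 was not tested.

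Most other inward rectifiers were at a higher level in AD/KO by fold change. Of the 15 genes of that family, 12 were tested, 9 of them higher and 3 lower in AD/KO, with 0 called. Kcnj10, an inward rectifier known from astrocytes, was at 132 and 299 CPM in AD and 308 and 643 CPM in AD/KO, an order of the libraries like that of the astrocyte list. The most negative fold change after that of Kcnj2 was in Kcnj13, at 9.94 and 6.02 CPM in AD and 5.16 and 3.20 CPM in AD/KO (log2 fold change −0.93, SE 0.52, adjusted p = 0.680, edgeR quasi-likelihood, Benjamini-Hochberg). Per kilobase of annotated exon, Kcnj2 made up 36.1% and 17.4% of the summed family level in the AD libraries and 10.7% and 1.82% in the AD/KO libraries. Kcnj10 made up 31.0% and 42.002% in AD and 53.3% and 53.7% in AD/KO, so that the Kcnj2 share was lower and the Kcnj10 share higher in each AD/KO library. These shares are over all cells of a sample, astrocytes included.

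Because Kcnj2 and Lrrc8a were the members that did not overlap, in opposite directions, the RefSeq sequence upstream of their starts is shown. Windows of 250 bases before the start were searched on both strands for GAGGAA (the core of the sites of PU.1, a transcription factor of microglia), CCGGAA (the core of ETS factor sites), TGACGTCA (the cAMP response element), TGANTCA (the AP-1 site) and CACGTG (the E-box). The first pair are both cores of the ETS family and can overlap each other. Capitals mark the matches, and bases in annotated exons of the gene were left out. The strand is plus for both, on GRCm38.p6, with Kcnj2 at chr11:111065914-111066163 and Lrrc8a at chr2:30237519-30237714.
Kcnj2: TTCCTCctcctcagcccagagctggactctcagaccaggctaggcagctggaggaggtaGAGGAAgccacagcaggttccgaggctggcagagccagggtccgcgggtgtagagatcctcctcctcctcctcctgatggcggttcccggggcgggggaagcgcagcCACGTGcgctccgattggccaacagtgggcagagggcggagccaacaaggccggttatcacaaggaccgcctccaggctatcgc
Lrrc8a: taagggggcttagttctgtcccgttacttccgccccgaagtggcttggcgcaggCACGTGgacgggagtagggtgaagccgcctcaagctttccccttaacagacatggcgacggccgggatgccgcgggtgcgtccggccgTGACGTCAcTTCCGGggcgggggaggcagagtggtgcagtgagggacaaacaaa
The Kcnj2 window held a TTCCTC and a GAGGAA, which are the PU.1 core read on either strand, and a CACGTG. The Lrrc8a window held a CACGTG, a TGACGTCA and, 1 base after it, a TTCCGG. Of the 8 members with a window in the table, 4 held the PU.1 core (Kcnj2, Kcnk13, Kcna3 and Trpv2), against 23.3% of 32851 windows of all genes. The E-box was in 3 of the 8 (Kcnj2, Kcnn4 and Lrrc8a) against 6.02% of windows, the cAMP response element in Lrrc8a alone against 1.55%, and CCGGAA in Lrrc8a alone against 12.03%. TGANTCA was in 0 of the 8, against 6.75% of windows. A member with several windows, such as Trpv2, counted when any of them matched, while the shares are over single windows. The start used is not always the outer end of the locus given below. The windows of Kcnk13 (99964249 to 99964498) and Kcnn4 (24370013 to 24370262) lie inside those loci. A match is a description of these letters and shows no binding.

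The tandem-pore potassium channels Kcnk6 and Kcnk13 followed the microglia level. Kcnk6 (gene ID 52150, chromosome 7, 29221928 to 29232522) encodes TWIK2, a channel known for potassium efflux upstream of the NLRP3 inflammasome in macrophages. It stood at 221 and 128 CPM in AD and at 221 and 60.2 CPM in AD/KO. The replicate 1 libraries of both groups were alike, and AD/KO replicate 2 was low, so the groups overlapped. Its log2 fold change was −0.31 (SE 0.70, 95% interval −2.11 to 1.495, adjusted p = 0.865, edgeR quasi-likelihood, Benjamini-Hochberg). It turned to 0.36 without AD/KO replicate 2 and to 0.14 without AD replicate 1. Scaled to the microglia list, the values were 155 and 122 CPM in AD and 151 and 132 CPM in AD/KO, and both AD/KO libraries lay between the AD libraries.

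Kcnk13 (gene ID 217826, chromosome 12, 99963149 to 100062682) encodes THIK-1, the main channel behind the resting potassium conductance of microglia and a regulator of their surveillance of the tissue. It was at 57.7 and 48.1 CPM in AD and at 55.6 and 23.1 CPM in AD/KO. Again AD/KO replicate 2 alone was low. The fitted log2 fold change was −0.43 (SE 0.48, 95% interval −1.67 to 0.82, adjusted p = 0.751, edgeR quasi-likelihood, Benjamini-Hochberg), and it was 0.08 without AD/KO replicate 2. On the microglia scaling Kcnk13 was at 40.5 and 45.9 CPM in AD and at 37.9 and 50.6 CPM in AD/KO, with a mean in AD/KO of 103% of that in AD. The intervals of both genes are wide and take in lower as well as higher levels in AD/KO.

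Of the 14 genes of that family, 11 were tested, 7 higher and 4 lower in AD/KO, with 0 called and a median log2 fold change of 0.55. Kcnk6 was the most abundant per kilobase of exon in both AD libraries, with 58.5% and 35.8% of the summed family level, and it had 51.3% and 15.4% in AD/KO. Kcnk13 had 20.4% and 18.0% in AD and 17.2% and 7.86% in AD/KO. Kcnk12, a close relative of Kcnk13, had the highest mean per kilobase of the others and was, before division by length, at 17.8 and 23.7 CPM in AD and at 24.6 and 29.1 CPM in AD/KO. The most positive fold change was in Kcnk4, which encodes the mechanically gated channel TRAAK of neurons, at 0.218 and 0.738 CPM in AD and 3.13 and 8.85 CPM in AD/KO. It rests on 3 reads in AD replicate 1, and its adjusted p was 0.680 (edgeR quasi-likelihood, Benjamini-Hochberg) and 0.0219 in DESeq2. DESeq2 called 0.44% of the genes it gave an adjusted p. Without AD replicate 2, edgeR called 8 of 99 channel and partner genes, all of potassium channel families and higher in AD/KO (Kcnk1, Kcnk2, Kcnk4, Kcnk10, Kcnj3, Kcnj4, Kcnj6 and Kcnn2), at adjusted p from 0.0208 to 0.0482, and 0 of the 10 members. Under that setting 2.15% of all genes tested were called higher. AD replicate 1, then the only AD library, had the lowest neuron level of the 4 libraries (4.55), and all 12 neuron markers were higher in AD/KO with all libraries (median log2 fold change 1.40). The part of neuronal RNA in these calls was not tested.

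Kcna3 and Kcnn4 were the least abundant members. Kcna3 (gene ID 16491, chromosome 3, 107036162 to 107038129) encodes Kv1.3, the voltage-gated potassium channel of activated microglia and T cells. It was at 9.94 and 9.16 CPM in AD and at 6.46 and 13.7 CPM in AD/KO. The AD/KO libraries lay on either side of the AD libraries, with replicate 2 high, opposite to most members. This gave a log2 fold change of 0.08 (SE 0.49, 95% interval −1.19 to 1.35, adjusted p = 0.955, edgeR quasi-likelihood, Benjamini-Hochberg), and it was −0.55 without AD/KO replicate 2 and 0.57 without AD/KO replicate 1. The T and NK cell markers were near the floor, with a summed level of 2.61 and 6.82 CPM in AD and 3.65 and 4.94 CPM in AD/KO. The Kv1 and Kv-beta list as a whole was ordered over the libraries like the neuron list, at a mean log2(CPM + 0.5) of 3.06, 4.18, 4.11 and 5.19 against 4.55, 6.19, 5.96 and 7.53. All 9 tested genes of the Kv1 and Kv-beta list were higher in AD/KO by fold change with 0 called. After TMM scaling 3 of the 9 did not overlap, where 20.3% of all genes lay above. On the microglia scaling 2 of the 9 did not overlap, where 8.06% of all genes lay above. The auxiliary subunit Kcnab2 had the highest mean per kilobase of the others, at 29.7 and 94.7 CPM in AD and 79.0 and 221 CPM in AD/KO.

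Kcnn4 (gene ID 16534, chromosome 7, 24369826 to 24385212) encodes KCa3.1, a calcium-activated potassium channel that couples calcium entry to hyperpolarisation. It had 50 and 50 reads in AD and 63 and 11 reads in AD/KO, which is 3.63, 3.07, 3.28 and 0.597 CPM. AD/KO replicate 2 alone was low, and its exact Poisson 95% interval of 0.298 to 1.07 CPM, which covers counting error only, lay below those of the other libraries. The log2 fold change was −0.78 (SE 0.89, 95% interval −3.09 to 1.52, adjusted p = 0.751, edgeR quasi-likelihood, Benjamini-Hochberg). Without AD/KO replicate 2 it was −0.02, and without AD/KO replicate 1 it was −2.42. Scaled to the microglia list, Kcnn4 was at 2.54 and 2.94 CPM in AD and at 2.24 and 1.31 CPM in AD/KO, so that the groups no longer overlapped. The gap between AD replicate 1 (50 reads) and AD/KO replicate 1 (63 reads) was narrow beside counting error. Of the 9 genes of the calcium-activated family, Kcnn4 included, 7 were higher in AD/KO with 0 called, and Kcnma1, the most abundant per kilobase, was at 88.2 and 94.0 CPM in AD and 114 and 203 CPM in AD/KO.

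The proton channel gene Hvcn1 (gene ID 74096, chromosome 5, 122206805 to 122242297) was at 93.6 and 74.3 CPM in AD and at 78.6 and 27.8 CPM in AD/KO. AD/KO replicate 1 lay between the AD libraries, and AD/KO replicate 2 was low. AD averaged 83.97 ± 13.7 CPM (SD, n = 2) and AD/KO averaged 53.2 ± 35.9 CPM (SD, n = 2). Its log2 fold change was −0.66 (SE 0.55, 95% interval −2.07 to 0.76, adjusted p = 0.699, edgeR quasi-likelihood, Benjamini-Hochberg), and it was −0.08 without AD/KO replicate 2 and −1.54 without AD/KO replicate 1. On the microglia scaling it was at 65.7 and 71.0 CPM in AD and at 53.6 and 61.0 CPM in AD/KO. Both AD/KO libraries were then the lower ones, at a mean of 83.8% of AD. The gap between AD/KO replicate 2 (513 reads) and AD replicate 1 was narrow. Tctn1, a cilium gene on the other strand, covers 44.2% of the annotated exon bases of Hvcn1, and the use of strand in counting is not given in the sources used here, so reads in the shared part are uncertain. Tctn1 itself was at 23.6 and 23.4 CPM in AD and 26.5 and 25.1 CPM in AD/KO.

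Hvcn1 works beside the NADPH oxidase, and genes of the oxidase and of proton and sodium exchange were compared with it. Of these 13 genes 10 were lower in AD/KO with 0 called, and the median log2 fold change was −0.55. In 5 of the 13 both AD/KO values were under the AD values after TMM scaling, where 21.7% of all genes were, and in 1 of the 13 on the microglia scaling, where 8.39% were. The most negative fold change was in Cybb, the catalytic subunit of the phagocyte oxidase, at 68.3 and 229 CPM in AD and 26.1 and 31.7 CPM in AD/KO. Its log2 fold change was −2.36 (SE 0.64, adjusted p = 0.680, edgeR quasi-likelihood, Benjamini-Hochberg), and it passed with DESeq2 (adjusted p of 0.0486) and in edgeR without AD replicate 1 (0.0210, where 0.186% of all genes were called lower), while leaving out AD replicate 2 gave −1.18 in edgeR (adjusted p of 0.443). The high value lay in AD replicate 2, the library with the high neutrophil level, and the part of neutrophils was not tested. The most positive fold change was in Atp1b1, a sodium pump subunit, at 20.5 and 60.6 CPM in AD and 66.2 and 178 CPM in AD/KO. Cyba, the partner of Cybb in the membrane, was at 108 and 107 CPM in AD and at 114 and 36.4 CPM in AD/KO, the pattern of most members.

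Of the TRP channels, Trpm2 (gene ID 28240, chromosome 10, 77907722 to 77969909), a calcium-permeable channel opened by ADP-ribose under oxidative stress, varied least among the members that were lower in AD/KO. It was at 187 and 148 CPM in AD and at 175 and 128 CPM in AD/KO. The groups overlapped, and the log2 fold change was −0.15 (SE 0.34, 95% interval −1.03 to 0.74, adjusted p = 0.869, edgeR quasi-likelihood, Benjamini-Hochberg). Leaving out AD/KO replicate 2 turned it to 0.07, and leaving out AD replicate 1 to 0.02. Scaled to the microglia list, it was at 131 and 142 CPM in AD and at 119 and 281 CPM in AD/KO, so that AD/KO replicate 2 was then the high library. Neutrophils also express Trpm2, and their part in its level was not tested.

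Trpv2 (gene ID 22368, chromosome 11, 62574486 to 62600305), a cation channel of macrophages, was at 96.8 and 69.3 CPM in AD and at 82.7 and 44.3 CPM in AD/KO. AD/KO replicate 1 lay between the AD libraries. The fitted log2 fold change was −0.39 (SE 0.42, 95% interval −1.46 to 0.69, adjusted p = 0.741, edgeR quasi-likelihood, Benjamini-Hochberg), and it was 0.0047 without AD/KO replicate 2. On the microglia scaling the values were 67.9 and 66.2 CPM in AD and 56.4 and 97.0 CPM in AD/KO, on either side of AD. Transcripts of Trpm2 and Trpv2 hold stretches of 100 bases or more at 95% identity or more in 141 and 33 other genes, at most 198 and 171 bases long, where reads that match several places are uncertain.

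Of 26 genes of the TRP family, 19 were tested, 12 higher and 7 lower in AD/KO with 0 called. The most abundant of the others per kilobase was Trpm7, a channel fused to a kinase, at 132 and 104 CPM in AD and 82.8 and 61.1 CPM in AD/KO. Its groups did not overlap (log2 fold change −0.72, SE 0.32, adjusted p = 0.680, edgeR quasi-likelihood, Benjamini-Hochberg). The most positive fold change was in Trpv6, which had 0 reads in AD replicate 1 and was at 0.246 CPM in AD replicate 2 and at 0.991 and 2.71 CPM in AD/KO. The most negative was in Trpm1, at 1.89 and 1.35 CPM in AD and 0 and 0.488 CPM in AD/KO. Both are at levels of few reads.

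The mechanosensitive channel gene Piezo1 (gene ID 234839, chromosome 8, 122481698 to 122551329), which lets calcium in when the membrane is stretched, was at 127 and 75.6 CPM in AD and at 121 and 45.2 CPM in AD/KO. As with Kcnk6, the replicate 1 libraries of both groups were high and AD/KO replicate 2 was low. This gave a log2 fold change of −0.28 (SE 0.57, 95% interval −1.76 to 1.19, adjusted p = 0.849, edgeR quasi-likelihood, Benjamini-Hochberg). It turned to 0.27 without AD/KO replicate 2 and to 0.14 without AD replicate 1. Scaled to the microglia list, it was at 89.1 and 72.2 CPM in AD and at 82.6 and 99.0 CPM in AD/KO, and the groups overlapped. Endothelial cells are also known for Piezo1, and the endothelial and mural list had a summed level of 58.1 and 89.1 CPM in AD and 70.4 and 140 CPM in AD/KO. Their part in the level of Piezo1 was not tested. Ctu2, on the other strand, covers 24.6% of the exon bases of Piezo1, so that reads there are uncertain without strand. Piezo2, the channel of sensory neurons, was at 1.23 and 3.995 CPM in AD and 2.50 and 4.12 CPM in AD/KO.

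Lrrc8a (gene ID 241296, chromosome 2, 30237769 to 30263790) was the member with the most positive fold change. It encodes the subunit that every volume-regulated anion channel needs, joined by Lrrc8b, Lrrc8c, Lrrc8d or Lrrc8e. The levels were 105 and 96.0 CPM in AD and 138 and 170 CPM in AD/KO. Both AD/KO libraries were high, with AD/KO replicate 2 the highest. AD averaged 100.3 ± 6.01 CPM (SD, n = 2) and AD/KO averaged 154 ± 22.9 CPM (SD, n = 2), a ratio of 1.54. The log2 fold change was 0.62 (SE 0.30, 95% interval −0.16 to 1.40), with an unadjusted p of 0.0964 and an adjusted p of 0.680 (edgeR quasi-likelihood, Benjamini-Hochberg), which did not pass the threshold. It was 1.499 on the microglia scaling, where Lrrc8a was at 73.3 and 91.7 CPM in AD and at 93.9 and 373 CPM in AD/KO. On that scaling AD/KO replicate 1 stood just above AD replicate 2, and AD/KO replicate 2 alone was far above. Lrrc8a is also expressed by astrocytes, whose 12 markers were all higher in AD/KO by fold change after TMM scaling. Of them 11 did not overlap, where 20.3% of all genes lay above, and on the microglia scaling 0 of the 12 did so. Their summed level after TMM scaling was 2249 and 5396 CPM in AD and 5801 and 14802 CPM in AD/KO. Oligodendrocyte markers were higher in 8 of 12 and lower in 4, and 4 of the 12 lay above without overlap after TMM scaling, where 20.3% of all genes did. On the microglia scaling 2 of the 12 lay above, Mbp among them, where 8.06% of all genes did. The summed level of the list after TMM scaling was 1712 and 2788 CPM in AD and 4035 and 8746 CPM in AD/KO. Much of it was Mbp, at 910 and 1324 CPM in AD and 2504 and 5620 CPM in AD/KO. Their mean log2(CPM + 0.5) overlapped, at 5.43 and 6.48 in AD and 6.17 and 6.79 in AD/KO. The part of either list in the level of Lrrc8a was not tested.

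The partner subunits differed in direction. Of 4 subunits tested, 2 were higher and 2 lower in AD/KO with 0 called, Lrrc8a included. Lrrc8d, which widens the channel's choice of organic molecules, was at 73.2 and 69.0 CPM in AD and at 65.6 and 37.2 CPM in AD/KO, without overlap (log2 fold change −0.47, SE 0.37, adjusted p = 0.690, edgeR quasi-likelihood, Benjamini-Hochberg). Lrrc8b was at 15.6 and 28.1 CPM in AD and at 16.5 and 34.7 CPM in AD/KO. Per kilobase of exon, Lrrc8a made up 71.8% and 66.1% of the summed level of the 5 subunits in AD and 78.5% and 79.8% in AD/KO, and Lrrc8d 17.2% and 16.3% in AD and 12.8% and 5.99% in AD/KO. The Lrrc8a share was thus higher, and the Lrrc8d share lower, in both AD/KO libraries. These shares are over all cells of a sample, astrocytes included, and on the microglia scaling Lrrc8d overlapped between the groups. Gm28035, a gene model not analysed here, shares 66.2% of the exon bases of Lrrc8a on the same strand.

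**Figure D4:**
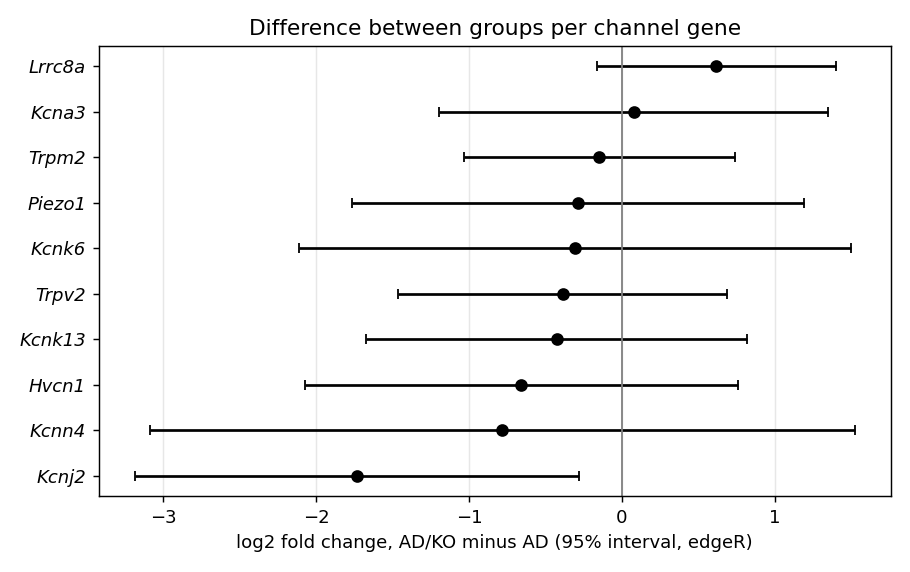
The log2 fold change of each channel gene (x axis, AD/KO minus AD, points) with its 95% interval from the edgeR fit (bars), ordered by size (y axis). The interval of Kcnj2 (−3.19 to −0.28) does not reach 0 before adjustment for the number of genes tested, and the other 9 include 0.

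Levels can be set side by side only per length. Per kilobase of annotated exon in AD, Kcnk6 led at 42.02 ± 15.9 CPM per kilobase (SD, n = 2). Kcnj2 at 25.6 ± 3.81, Hvcn1 at 23.6 ± 3.83 and Lrrc8a at 23.3 ± 1.40 CPM per kilobase followed, and these neighbours overlapped in their libraries. Trpv2 at 18.5 ± 4.33 and Kcnk13 at 16.99 ± 2.19 CPM per kilobase overlapped too, as did Trpm2 at 13.5 ± 2.21 and Piezo1 at 10.2 ± 3.66 CPM per kilobase. Kcna3 at 5.02 ± 0.292 and Kcnn4 at 0.655 ± 0.0768 CPM per kilobase came last, each apart from its neighbour. In AD/KO the order was led by Lrrc8a at 35.7 ± 5.32 and Kcnk6 at 33.9 ± 27.5 CPM per kilobase, and Kcnj2 at 7.71 ± 5.19 CPM per kilobase was in place 8 instead of place 2. The annotated exons of Trpm2 add up to 12459 bases over all its transcripts, which lowers its value per kilobase.

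Members were matched to the gene whose centred log2 CPM over the 4 libraries lay nearest, among 13768 other tested genes with a mean of at least 5 CPM (13769 for Kcnn4, which is itself below that mean). The measure is the Euclidean distance in log2 units. The nearest gene to Kcnj2 was Ly9, a receptor of the SLAM family, at a distance of 0.135, with 69.5 and 57.2 CPM in AD and 25.96 and 10.4 CPM in AD/KO. Within 0.3 of Kcnj2 lay 3 genes, against 1930 for Trpm2, 1084 for Trpv2, 428 for Kcnk13, 358 for Lrrc8a and 18 for Kcna3, a count that also depends on how far a gene's values spread. The nearest to Kcnk6 was Susd3 (0.0534), to Kcnk13 Dqx1 (0.0139), to Hvcn1 Galnt12 (0.0440), to Piezo1 Lrp5 (0.0266), to Kcnn4 Tlr13 (0.0569), to Trpv2 Slc10a7 (0.00698), to Trpm2 Slc18b1 (0.0257) and to Lrrc8a Pex26 (0.0215). Among the members themselves the closest pair was Kcnn4 and Hvcn1, at 0.249. With 4 libraries such a likeness describes these samples and no more.

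Channels that work beside the members were compared from lists of other classes. Store-operated calcium entry had 2 genes higher and 3 lower of 5 tested, and Orai1, its pore subunit, was at 73.7 and 48.0 CPM in AD and at 76.9 and 23.8 CPM in AD/KO, the pattern of Kcnk6. Stim1, the calcium sensor, was at 65.6 and 70.4 CPM in AD and at 70.3 and 80.4 CPM in AD/KO. Of the ATP-gated P2X channels 6 were tested, 3 higher and 3 lower, and P2rx7, whose opening drives potassium efflux, was at 308 and 179 CPM in AD and 221 and 68.5 CPM in AD/KO (log2 fold change −0.75, SE 0.66). Chloride channels and scramblases had 6 genes higher and 7 lower of 13 tested, and Clic4 had the most positive fold change, at 41.95 and 73.5 CPM in AD and 69.5 and 150 CPM in AD/KO. The lysosomal cation channels had 1 gene higher and 3 lower of 4 tested, with Tpcn2 at 69.1 and 67.2 CPM in AD and at 56.9 and 44.6 CPM in AD/KO without overlap. In the 4 lists, edgeR called 0 genes, and 0 had an unadjusted p under 0.05.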

How the data were processed

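Bulk RNA-seq was made from CD11b+ cells of 4 samples, 2 labelled AD and 2 labelled AD/KO, with TRIzol extraction, ribosomal RNA depletion and a stranded kit, per the labels' protocols. The authors deposited raw read counts per gene symbol, 1 table per library. The submitters' processing notes name HISAT2, SAMtools, featureCounts, DESeq2 1.30.0 and mm10, and settings and annotation are not given in the sources used here. Broken lines (11) left 4 genes without a count. The 10 members and all lists were chosen with earlier results of these data known.

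Counts were tested in edgeR 4.0.16 (R 4.3.3) after filterByExpr (minimum count 10, minimum total 15) and TMM scaling, with the quasi-likelihood F-test on 4 libraries without covariates and Benjamini-Hochberg adjustment over all genes at 0.05. The SE is the log2 fold change divided by the square root of F. The procedure was tested on simulated data. Loci are from RefSeq on GRCm38.p6, counted from 1, and exon lengths, merged over transcripts, and overlaps from GENCODE M21 on GRCm38. Near-identical stretches were searched with BLAST. Named beside the members were, per list, the most abundant other gene per kilobase, the largest rise and the largest fall, of which some are given, and the gene of most similar pattern per member, which for Kcna3 is not reported here. Levels of lists used a pseudocount of 0.5 CPM. Alternatives were DESeq2 1.42.0, DESeq2 size factors, no filter, a mean of at least 1 CPM, scaling to the microglia identity list, the replicate number as a block, and leaving out each library.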

Additional observations from a re-analysis of the deposited data

How the results depend on the processing

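Scaling, filter and design were changed one at a time. The alternatives gave 150 values, of which 121 held both direction and call or moved little, 18 changed direction, 10 became stronger and 1 moved further. Of the 10, Kcnj2 with the replicate block newly passed the threshold, and the others were counts of called genes that rose from 0. Kcnj2, Lrrc8a, Hvcn1 and Kcnn4 kept their direction under every alternative run, Kcnj2 between −2.61 and −1.16 and Lrrc8a between 0.47 and 1.499. Scaling to the microglia identity list turned the members' median to 0.10, Kcnk13 to 0.035, Kcnk6 to 0.030, Piezo1 to 0.17, Trpm2 to 0.55, Trpv2 to 0.19 and Ociad1 to 0.015 (log2 fold change). With a library left out, the median ran from −1.13 to 0.037, Kcnk13 from −1.14 to 0.084, Kcnk6 from −1.48 to 0.36, Piezo1 from −1.11 to 0.27, Trpm2 from −0.33 to 0.069, Trpv2 from −0.86 to 0.0047 and Kcna3 from −0.55 to 0.57. The upper end of these came without AD/KO replicate 2, except for Kcna3, where it came without AD/KO replicate 1. When 1 library of a group is left out, the remaining library is assumed to vary like the other group.

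Genes past the adjusted threshold numbered 0 in edgeR (1072 at an unadjusted p under 0.05) and 88 in DESeq2, and their number ran from 0 to 524 with a library left out, the highest without AD replicate 2 and 48 without AD replicate 1. Among the 97 tested channel and partner genes that are not members it was 0 by edgeR (5 at an unadjusted p under 0.05), 2 with DESeq2 (Cybb and Kcnk4) and from 0 to 8 with a library left out. These alternatives for the channel and partner genes were chosen after the data were seen. The cause was not tested. The groups share the replicate numbers 1 and 2, which no label ties to a litter, batch or day. Libraries with the same number deviated together, with a correlation of 0.68 over 21439 genes. With the replicate block 4333 genes were called, 34 of the channel and partner genes and 1 member (Kcnj2, log2 fold change −1.90, adjusted p = 0.00512, edgeR quasi-likelihood, Benjamini-Hochberg). The block value of Kcna3 was −0.0088. With 11 reads in its lowest library, Kcnn4 was the member most limited by depth.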
